A study of Bos taurus with 22 samples.

Results

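RBP4, ALDH1A1, RARA and RARRES1 are genes of the retinoid pathway: a carrier, an enzyme of retinoic acid synthesis, a receptor and a responder. They were taken as every probe set whose single annotated gene symbol was one of these names, which gave 5 probe sets for 4 genes, of 24016 bovine probe sets for 9155 genes on the array. RARA had 2 probe sets and each of the other members had 1. The members were chosen with their change between the sampling times in view, so that change is given below as a description without a test.

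The study sampled subcutaneous white adipose tissue (dorsal, periischeum region) of 11 Holstein cows in early lactation and in late pregnancy, and hybridised total RNA of each sample to an Affymetrix bovine array. The postpartum group held 11 arrays of tissue taken 14 days after the first calving, and the prepartum group held 11 arrays of tissue taken 30 days before it. All animals were first-calving heifers of 24 to 28 months, raised on 1 farm with the same feed and without a dietary treatment. The labels give the prepartum ration as alfalfa haylage, orchardgrass hay and concentrate. They take up the postpartum ration separately, but the text used here ends before its content, so effects of lactation and of any change of ration cannot be told apart.

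Retinol leaves its stores bound to RBP4, which circulates in a complex with transthyretin (TTR), and adipocytes are a known source of RBP4 beside the liver. Inside cells, retinol is oxidised to retinal by short-chain dehydrogenases, retinal is oxidised to retinoic acid by enzymes such as ALDH1A1, and retinoic acid binds nuclear receptors such as RARA that pair with retinoid X receptors on target genes. RARRES1 was named in human skin as a gene induced by a retinoid, and in adipose tissue of mice ALDH1A1 is known as a main retinal dehydrogenase.

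The deposited values are linear signals that the authors had scaled to a trimmed mean of 125 on every array. Log2 values below are log2(signal + 7.78), a scale on which the change of dim probe sets is understated, and a cow's change is its postpartum minus its prepartum value. Adipocyte markers were present throughout: 12 of 15 were kept after the filter on dim probe sets, and their summed signal ran from 16130 to 35830 postpartum and from 22800 to 37270 prepartum. The summed signal of 12 kept of 20 skeletal muscle markers ran from 1622 to 77330 postpartum and from 1645 to 50910 prepartum, and it was highest in the samples of cows 384 and 386 postpartum and of cows 387 and 384 prepartum. KRT10, an epidermal keratin, stood between 9.34 and 12.55 in 4 prepartum samples, those of cows 330, 331, 341 and 382, and reached at most 6.91 postpartum. Of 18 listed epidermis markers 2 were kept, KRT10 among them. Their summed signal ran from 173 to 6188 prepartum, and KRT10 alone stood at 6002 in cow 341, so the rise there lay almost wholly in KRT10. Epidermal content is thus read from this 1 gene only, and no second marker was used to check it. The titles end in 1 of 2 codes of unstated meaning, by which array set 2 holds 6 cows (330, 346, 382, 384, 386 and 387) and array set 1 holds 5 (331, 338, 341, 347 and 360). The deviations of a cow's arrays from the group means correlated at 0.18 to 0.43 in 10 cows. For the pair labelled cow 387 they correlated at -0.095, so that this pairing is in doubt. That pair also differed in muscle markers, at 7.51 log2 units above the gene medians prepartum and 0.02 postpartum. Cow 386, at 0.00 prepartum and 4.62 postpartum, had a correlation of 0.239. The part of muscle in these correlations was not tested. In bulk tissue, fewer cells of a type and less RNA per cell cannot be told apart.

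RARRES1 was lower postpartum in all 11 cows, by 3.44-fold on average. RBP4 had a mean log2 change of -0.64 with wide spread between cows, ALDH1A1 one of -0.38, and the RARA probe sets -0.12 and 0.08. For the background alone, 1 of the 5 member probe sets (RARRES1) was among those past an adjusted p of 0.05 in limma's fit, where 3.43% of 14410 kept probe sets did (494, of which 208 were higher and 286, or 1.98% of those kept, lower). Ranked from the lowest change upward among 6984 genes, RARRES1 stood at 5, RBP4 at 115, ALDH1A1 at 335 and RARA at 1671. This count and these ranks follow from the choice of the members, so they are no test and nothing is read from them.

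**Figure D1:**
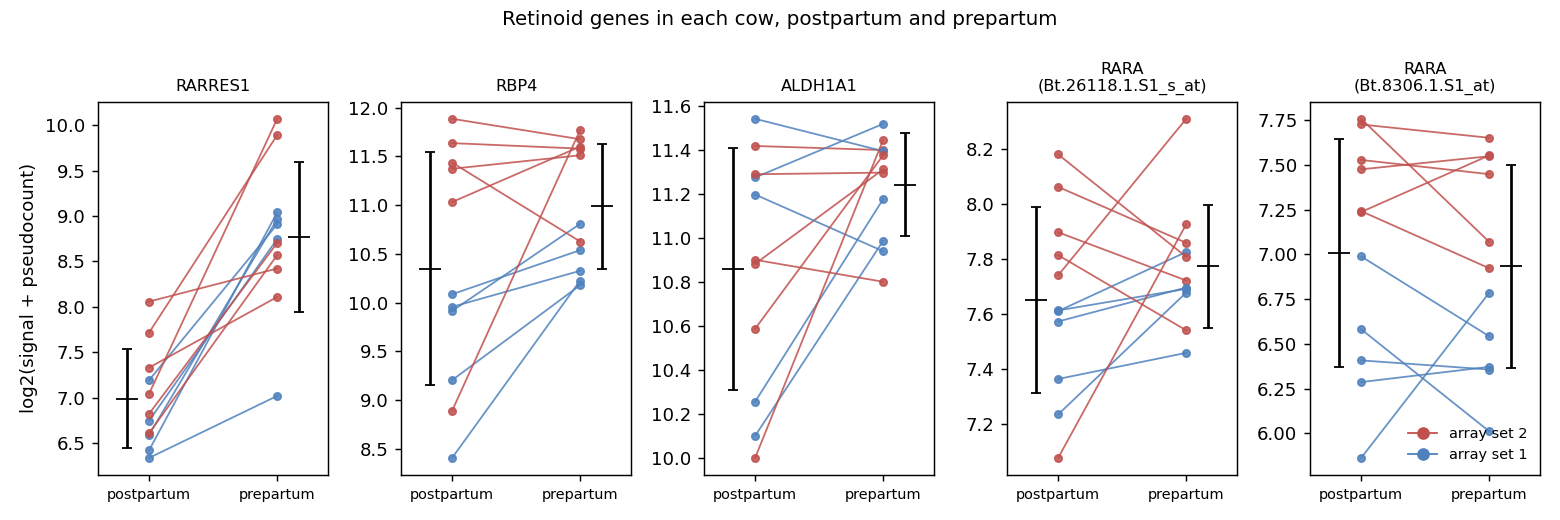
Levels of the 5 member probe sets, as log2(signal + 7.78), postpartum on the left and prepartum on the right of each panel. Points are arrays, lines join the arrays of a cow and are coloured by array set, and black bars give the mean and SD of 11 arrays. RARRES1 falls toward the postpartum side in every cow, the RARA probe set Bt.8306.1.S1_at separates by array set at each time, and RBP4 does so except for cow 384 postpartum and cow 387 prepartum.

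RBP4, the plasma retinol carrier, had signals of 332 (cow 360), a median of 1079 and 3776 (cow 330) postpartum, against 1152 (cow 341), a median of 1786 and 3491 (cow 384) prepartum. The groups overlapped, and the postpartum arrays spread more, with a mean log2 level of 10.35 ± 1.20 postpartum and 10.99 ± 0.64 prepartum (SD, n = 11 each). The mean change was -0.64 (SD 1.01, n = 11 cows), a 1.56-fold lower level, with 8 cows lower and 3 higher.

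Single animals moved that mean. The largest changes were -2.88 in cow 384 and -1.82 in cow 360, and the highest was 0.81 for the pair labelled cow 387. Without cow 384 the mean change was -0.41, and without cows 384 and 387 it was -0.55. The low postpartum array of cow 384 also had the highest skeletal muscle markers, at 8.16 log2 units above the gene medians, and the lowest adipocyte markers, at -1.85. Over all cows the 12 kept adipocyte markers had a median change of -0.34, with 2 lower and none higher past the threshold of limma's fit. Among all 6984 kept genes that fit called 151 lower and 108 higher. The 9 kept macrophage markers had a median change of 0.37, and of the 12 kept endothelial markers (median change 0.15) 2 were higher. The part of these markers in the RBP4 change was not tested.

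Within array set 1 the RBP4 signals were 1079, 957, 582, 986 and 332 postpartum in cows 331, 338, 341, 347 and 360, against 1479, 1786, 1152, 1277 and 1190 prepartum. Every postpartum array of that set lay below every prepartum array, as did 1.25% of kept probe sets, and the mean change was -0.90 (SD 0.58, n = 5). In array set 2 the signals were 467 (cow 384), a median of 2704 and 3776 postpartum, against 1573 (cow 387), a median of 3075 and 3491 prepartum. There 3 cows were lower and 3 higher, with a mean change of -0.42 (SD 1.29, n = 6).

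ALDH1A1, which oxidises retinal to retinoic acid, had signals of 1018 (cow 384), a median of 1906 and 2974 (cow 331) postpartum, against 1778 (cow 387), a median of 2536 and 2927 (cow 338) prepartum. The postpartum arrays spanned the whole prepartum range and reached below it in 4 cows. The mean log2 level was 10.86 ± 0.55 postpartum and 11.24 ± 0.23 prepartum (SD, n = 11 each), with a mean change of -0.38 (SD 0.56, n = 11 cows).

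The ALDH1A1 change was negative in 7 cows and positive in 4. It was at or below -0.79 in cows 384, 360, 341 and 382 and between -0.43 and 0.26 in the others. The same 4 cows had the lowest postpartum adipocyte markers, at -1.85, -0.74, -0.28 and -0.87 log2 units. The mean change of ALDH1A1 (-0.38) stood beside a median change of -0.34 for the adipocyte markers, whose part in it was not tested.

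RARA, the alpha retinoic acid receptor, was measured by 2 probe sets that gave changes of opposite sign. Bt.26118.1.S1_s_at, whose suffix marks probes that match more than 1 transcript, had signals of 127 (cow 384), a median of 188 and 282 (cow 382) postpartum, against 168 (cow 341), a median of 203 and 309 (cow 346) prepartum. Bt.8306.1.S1_at had signals of 50.4 (cow 347), a median of 143 and 209 (cow 382) postpartum, against 56.7 (cow 360), a median of 114 and 193 (cow 387) prepartum. Groups overlapped for both.

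The mean change was -0.12 (SD 0.38, n = 11 cows) for Bt.26118.1.S1_s_at, with 7 cows lower and 4 higher. It was 0.08 (SD 0.45, n = 11 cows) for Bt.8306.1.S1_at, with 4 cows lower and 7 higher. The first probe set was lower in 5 of 5 cows of array set 1, by 0.08 to 0.44 log2 units, and in 2 of 6 cows of array set 2. Each mean change was smaller in size than its SD between cows, as were those of RBP4 and ALDH1A1, which is no test of a change.

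RARRES1, the retinoid responder, had signals of 73.0 (cow 331), a median of 105 and 259 (cow 387) postpartum, against 122 (cow 331), a median of 422 and 1068 (cow 346) prepartum. Of the prepartum arrays, 10 stood above every postpartum array, and cow 331 was the exception. The mean log2 level was 6.99 ± 0.55 postpartum and 8.77 ± 0.82 prepartum (SD, n = 11 each). The change averaged -1.78 (SD 0.84, n = 11 cows), and 1.19% of kept probe sets were lower postpartum in every cow.

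The size of the RARRES1 change differed among cows. It was -3.03 in cow 346, -2.62 in cow 338, -2.38 in cow 347 and -2.18 in cow 330, which is 8.16-fold to 4.52-fold lower. It was smallest in cows 382 (-0.78), 331 (-0.68) and 387 (-0.36). Cow 331 had the lowest signal at both times, while cow 387 had the highest postpartum signal beside a prepartum signal of 335.

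In array set 2, RARRES1 ran from 89.8 to 259 postpartum and from 268 to 1068 prepartum without overlap, as 0.77% of kept probe sets did in that direction. In array set 1 the signals were 73.0, 77.8, 138, 88.6 and 99.5 postpartum in cows 331, 338, 341, 347 and 360, against 122, 519, 473, 492 and 422 prepartum. The prepartum array of cow 331 alone fell within the postpartum range there. The mean change was -1.70 (SD 0.97, n = 6) in array set 2 and -1.88 (SD 0.75, n = 5) in array set 1.

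RARRES1 was also set beside the arrays with high KRT10 or high muscle markers. In the 4 prepartum arrays with high KRT10 its signals were 943, 122, 473 and 268 (cows 330, 331, 341 and 382), against 335 to 1068 in the other 7, and without these 4 cows the mean change was -2.03. Without cows 384 and 387 it was -1.92, and with the muscle markers as a covariate it was -1.74.

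**Figure D2:**
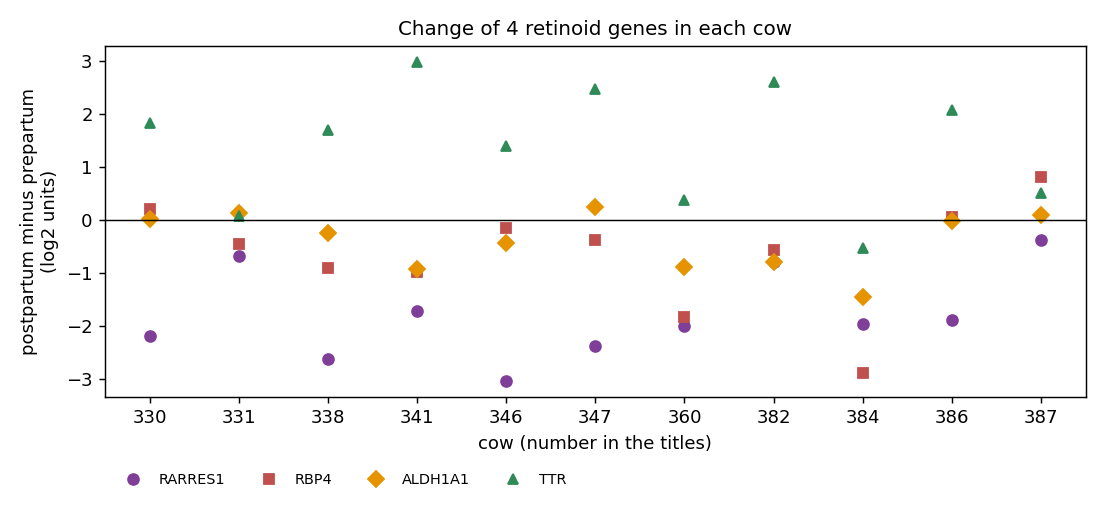
Change of RARRES1, RBP4, ALDH1A1 and TTR in each of 11 cows, as the postpartum minus the prepartum log2(signal + 7.78). RARRES1 lies below 0 in all cows, RBP4 ranges from -2.88 in cow 384 to 0.81 in cow 387, and TTR lies above 0 in all cows but 384.

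The array sets were then compared, which was not used to choose the members. The difference of the postpartum change, array set 2 minus array set 1, was fitted with limma over all kept probe sets. It was 0.18 (SE 0.45) for RARRES1, 0.48 (SE 0.52) for RBP4, -0.10 (SE 0.31) for ALDH1A1, and 0.13 (SE 0.23) and 0.12 (SE 0.26) for the RARA probe sets. No member was called (limma adjusted p = 0.997 for each), nor was any of the 14410 probe sets, of which 516 had an unadjusted p under 0.05. Each of these standard errors was larger than its difference, so differences of this size were not detectable in 6 against 5 cows.

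The level of 2 member probe sets, by contrast, differed between the array sets. This comparison was added once each cow's values were known, and took the mean of each cow's arrays. RBP4 averaged 11.25 ± 0.52 in array set 2 (SD, n = 6 cows) and 9.96 ± 0.45 in array set 1 (SD, n = 5 cows), a 2.44-fold higher level (log2 difference 1.29, SE 0.25, limma adjusted p = 0.00588). The RARA probe set Bt.8306.1.S1_at averaged 7.43 ± 0.20 in array set 2 and 6.42 ± 0.20 in array set 1, a 2.01-fold higher level (log2 difference 1.01, SE 0.12, limma adjusted p = 0.000387). Among all kept probe sets 15.2% passed, with 1267 (8.79%) higher and 921 lower in array set 2, and quantile normalization gave 940 higher and 1029 lower.

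The RBP4 difference was 1.05 among prepartum arrays alone (limma adjusted p = 0.0048) and 1.53 among postpartum arrays alone, where it did not pass (limma adjusted p = 0.126). It did not pass either without cows 330, 331, 341 and 382 (1.16, limma adjusted p = 0.0821). All but 2 arrays of array set 2 lay above every array of array set 1 in RBP4. The exceptions were cow 384 postpartum (467) and cow 387 prepartum (1573), the arrays with the highest muscle markers.

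For the RARA probe set Bt.8306.1.S1_at the difference was 1.07 among postpartum arrays (limma adjusted p = 0.0237) and 0.95 among prepartum arrays (limma adjusted p = 0.00434). Its signals ran from 143 to 209 in array set 2 and from 50.4 to 119 in array set 1 postpartum, without overlap, as 2.26% of kept probe sets did in that direction. Prepartum they ran from 114 to 193 in array set 2 and from 56.7 to 103 in array set 1, again without overlap, as 4.77% of kept probe sets did in that direction. For this probe set, cow 384 postpartum (143) and cow 387 prepartum (193) stood with their set. The other RARA probe set differed by 0.25 (SE 0.11, limma adjusted p = 0.136), and by 0.32 without cow 384 and 0.37 without cows 384 and 387, where it passed (limma adjusted p = 0.034 and 0.0217).

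RARRES1 differed by 0.52 (SE 0.26, limma adjusted p = 0.204) and ALDH1A1 by 0.02 (SE 0.17, limma adjusted p = 0.954), which did not pass. What the title codes stand for is not stated, so cows, hybridisation and any other property that went with them cannot be told apart.

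The members were next compared with each other across cows at each time, in 6 pairs at 2 times. RARA was taken here and below as Bt.26118.1.S1_s_at, the brighter of its probe sets, whose level difference between array sets had not passed. Over all 11 cows none of the 12 correlations passed Benjamini-Hochberg adjustment, and 3 had an unadjusted permutation p under 0.05 by Pearson's r and 4 by Spearman's rho. The levels of RBP4 and of the other RARA probe set differed between array sets. Each level was therefore also taken relative to the mean of its array set at that time, a step added with the values known. RBP4 and ALDH1A1, the carrier and the enzyme, were then the pair that passed, at both times.

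Postpartum, RBP4 and ALDH1A1 correlated over 11 cows at r = 0.643 (permutation p = 0.0364, adjusted p = 0.163) and rho = 0.655 (permutation p = 0.0335, adjusted p = 0.143), with r = 0.452 without the 2 cows farthest from the median. Within array sets r was 0.887 (exact permutation p = 3.47e-05, adjusted p = 0.000417) and rho was 0.964 (exact permutation p = 6.94e-05, adjusted p = 0.000833). Within array sets r was 0.941 without the 2 cows farthest from the median and 0.931 in array set 2 alone. Without cows 384 and 387 r was 0.948 (9 cows, exact permutation adjusted p = 0.00833), and rho was 0.917 and did not pass (exact permutation adjusted p = 0.0833). Array set 1, with 5 cows, is too small for a correlation of its own.

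Prepartum, the pair correlated at r = 0.605 (permutation p = 0.0542, adjusted p = 0.163) and rho = 0.618 (permutation p = 0.0475, adjusted p = 0.143) over 11 cows, with r = 0.507 without the 2 cows farthest from the median. Within array sets r was 0.911 (exact permutation p = 0.0031, adjusted p = 0.0186) and rho was 0.900 (exact permutation p = 0.000845, adjusted p = 0.00507), with r = 0.924 without the 2 cows farthest from the median. Without cows 384 and 387 r was 0.833 and did not pass (9 cows, exact permutation adjusted p = 0.331). The prepartum array labelled cow 387 was the lowest of its set in both genes.

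No pair with RARRES1 passed. Within array sets its correlation with RBP4 was 0.302 postpartum and 0.104 prepartum, and with ALDH1A1 it was -0.039 postpartum and -0.026 prepartum. The adjusted exact permutation p was between 0.65 and 0.94 in these 4 cases (n = 11 cows). A relation between the level of the responder and that of the carrier or the enzyme was thus not detected in 11 cows. RBP4 and RARA had r = 0.742 postpartum over 11 cows (permutation p = 0.00953, adjusted p = 0.114), but r = 0.64 within array sets (exact permutation adjusted p = 0.478). Without cows 384 and 387 the latter was -0.243 (9 cows).

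An adipocyte marker score was set beside these levels, as the median deviation of 12 adipocyte markers, which do not include a member. This score is RNA and cannot tell the number of adipocytes from the RNA of these genes per cell. Postpartum and within array sets it correlated with RBP4 at r = 0.952 and rho = 0.909 (exact permutation p = 6.94e-05, adjusted p = 0.000324 for r and 0.000787 for rho, n = 11 cows). For ALDH1A1 it was r = 0.849 and rho = 0.873 (exact permutation p = 8.1e-05, adjusted p = 0.000324 for r and 0.000787 for rho, n = 11 cows). Without the 2 cows farthest from the median of the markers, r was 0.819 and 0.725. Without cows 384 and 387 it was 0.869 and 0.855 (9 cows, exact permutation adjusted p = 0.00556 for both), while rho passed for RBP4 (0.833, exact permutation adjusted p = 0.0389) and not for ALDH1A1 (0.733, exact permutation adjusted p = 0.114).

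The other 6 of the 8 relations with adipocyte markers did not pass. Prepartum r was 0.684 for RBP4 and 0.759 for ALDH1A1 (exact permutation adjusted p = 0.131 and 0.0526), and without cows 384 and 387 it was 0.084 and 0.481. For RARRES1 it was 0.302 postpartum and 0.029 prepartum, and for RARA it was 0.577 and 0.53 (exact permutation adjusted p between 0.233 and 0.939). Without cows 384 and 387 r was -0.37 and -0.238 for RARRES1, and -0.297 and 0.198 for RARA. RBP4 and ALDH1A1 thus moved with the adipocyte markers among postpartum arrays, and the part of adipocyte content in their relation was not tested.

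**Figure D3:**
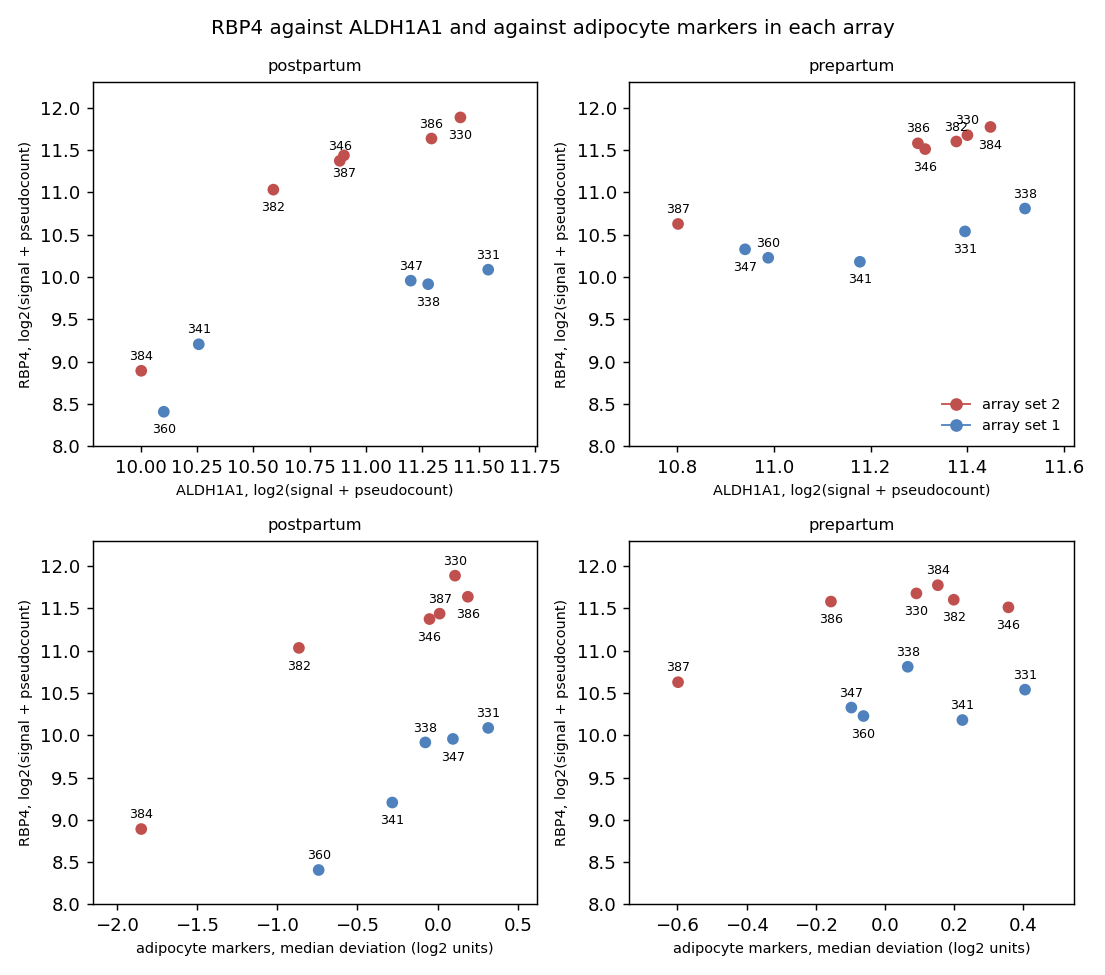
RBP4 level against the ALDH1A1 level (top, both as log2(signal + 7.78)) and against the median deviation of 12 adipocyte markers (bottom, log2 units), postpartum on the left and prepartum on the right. Points are arrays labelled by cow and coloured by array set. In the top panels RBP4 rises with ALDH1A1 in array set 2 at both times and in array set 1 postpartum. In array set 1 prepartum it does not rise from cow 347 (10.33) through cow 360 (10.23) to cow 341 (10.18). Array set 2 lies above array set 1 at like ALDH1A1 levels. Cow 384 postpartum and cow 387 prepartum lie at the low end of array set 2.

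The rest of the pathway was read from a list of 82 other retinoid genes in 7 roles, of which 51 had a probe set and 36 a kept one. Of these 36 genes, TTR rose and LPL fell past an adjusted p of 0.05 in limma's fit over all probe sets. That is 5.56% of the list against 3.71% of all 6984 genes (108 higher, 151 lower). The list was chosen with earlier results of these data known, so this share is a description and no test of the pathway. A total of 18 genes had a positive and 18 a negative change, with a median of -0.001 against 0.01 over all genes. An unadjusted limma p under 0.05 was found for 6 of the 36 genes and for 1452 of all 6984. Without cows 330, 331, 341 and 382 neither gene passed, and 4 of the 36 had an unadjusted p under 0.05. Of all 14410 kept probe sets 6 passed there, and 1531 had an unadjusted limma p under 0.05. In array set 1 alone and in array set 2 alone, none of the 36 passed limma's test, and 10 and 4 had an unadjusted p under 0.05. Of all kept probe sets 69 and 0 passed in these sets, and 2329 and 1526 had an unadjusted limma p under 0.05.

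TTR, the plasma partner of RBP4, had signals of 78.9 (cow 384), a median of 330 and 993 (cow 382) postpartum, against 60.6 (cow 341), a median of 108 and 156 (cow 382) prepartum. Of the postpartum arrays, 8 lay above every prepartum array. TTR rose 2.67-fold (log2 change 1.41, SE 0.29, limma adjusted p = 0.0175) and was higher in 10 of 11 cows. RBP4 and TTR were both lower postpartum in cow 384 and both higher in cows 330, 386 and 387, and in the other 7 cows RBP4 was lower and TTR higher.

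In the same role, CRABP2, which carries retinoic acid to its receptor, had a change of 0.68 (SE 0.25, limma adjusted p = 0.138, 9 of 11 cows higher). It passed without cow 384, where 969 of all probe sets passed against 494 with all cows. It did not pass when any other single cow was left out. The RBP4 receptor STRA6 was dim, with a median signal of 32.9 postpartum and 28.1 prepartum. Its change was 0.02 (limma adjusted p = 0.947), with 7 of 11 cows lower. The role, transport and cell binding, was counted without RBP4. All 4 of its kept genes had a positive change, with a median of 0.48, and 1 passed. Over all kept genes, 3676 of 6984 had a positive change.

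Among genes of storage and release, LPL, the lipase that frees fatty acids and can hydrolyse retinyl esters of circulating lipoproteins, had signals of 809 (cow 384), a median of 2080 and 5164 (cow 331) postpartum, against 3433 (cow 387), a median of 4315 and 6014 (cow 384) prepartum. It fell 2.27-fold (log2 change -1.18, SE 0.28, limma adjusted p = 0.0323) and was lower in 10 of 11 cows. The median change of the adipocyte markers was -0.34, and its part in the LPL change was not tested. The call of LPL was lost without any one of cows 330, 341, 346, 360 and 382 (limma adjusted p = 0.0544 to 0.0779). PNPLA2, a triglyceride lipase, had a change of -0.20 (limma adjusted p = 0.512), and the remaining 2 genes of this role, LIPE and DGAT1, had changes of 0.13 and 0.08.

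None of the 8 kept genes that interconvert retinol and retinal passed, with a median change of -0.10. Among all 6984 kept genes 1452 had an unadjusted limma p under 0.05, and in this role 1 did. That gene was DHRS3, which reduces retinal to retinol, with a change of -0.33 (SE 0.10, limma adjusted p = 0.0914, 9 of 11 cows lower). It passed without cow 386 and not when any other single cow was left out. RDH5, a retinol dehydrogenase, had a change of -0.23 (limma adjusted p = 0.633). Of the carotenoid genes, BCO2, a carotenoid-cleaving oxygenase, had a change of -0.26 (limma adjusted p = 0.304), and SCARB1, a lipoprotein receptor that takes up carotenoids, one of -0.07 (limma adjusted p = 0.703).

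None of 9 receptors and cofactors passed, and none had an unadjusted limma p under 0.05, against 1452 of all 6984 kept genes. The changes with the largest size were those of RXRG, a retinoid X receptor (0.26, limma adjusted p = 0.532), and PPARD, a nuclear receptor for fatty acids (-0.18, limma adjusted p = 0.334). RXRA, a partner of RARA, had a change of -0.09 (limma adjusted p = 0.715). The median over the role was 0.00.

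None of the 9 kept responders other than RARRES1 passed, with a median change of -0.04. In this role 2 had an unadjusted limma p under 0.05, as did 1452 of all 6984 kept genes. TGM2, a transglutaminase long known as induced by retinoic acid, had a change of 0.39 (SE 0.11, limma adjusted p = 0.069, 9 of 11 cows higher), and GPRC5C, an orphan receptor of a retinoic acid-induced family, one of 0.37 (limma adjusted p = 0.367). HOXA5, a homeobox gene with a known retinoic acid response, had a change of 0.23 (limma adjusted p = 0.265, 10 of 11 cows higher). Like CRABP2, it passed without cow 384 and not when any other single cow was left out. ICAM1 had a change of -0.37 (limma adjusted p = 0.158, 10 of 11 cows lower). RARRES2, which was also named as a retinoid-induced gene in human skin and encodes chemerin, had a change of 0.16 (limma adjusted p = 0.44). Of 7 other genes of retinoic acid synthesis and breakdown, 1 had a probe set, which was dim and was not tested.

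**Figure D4:**
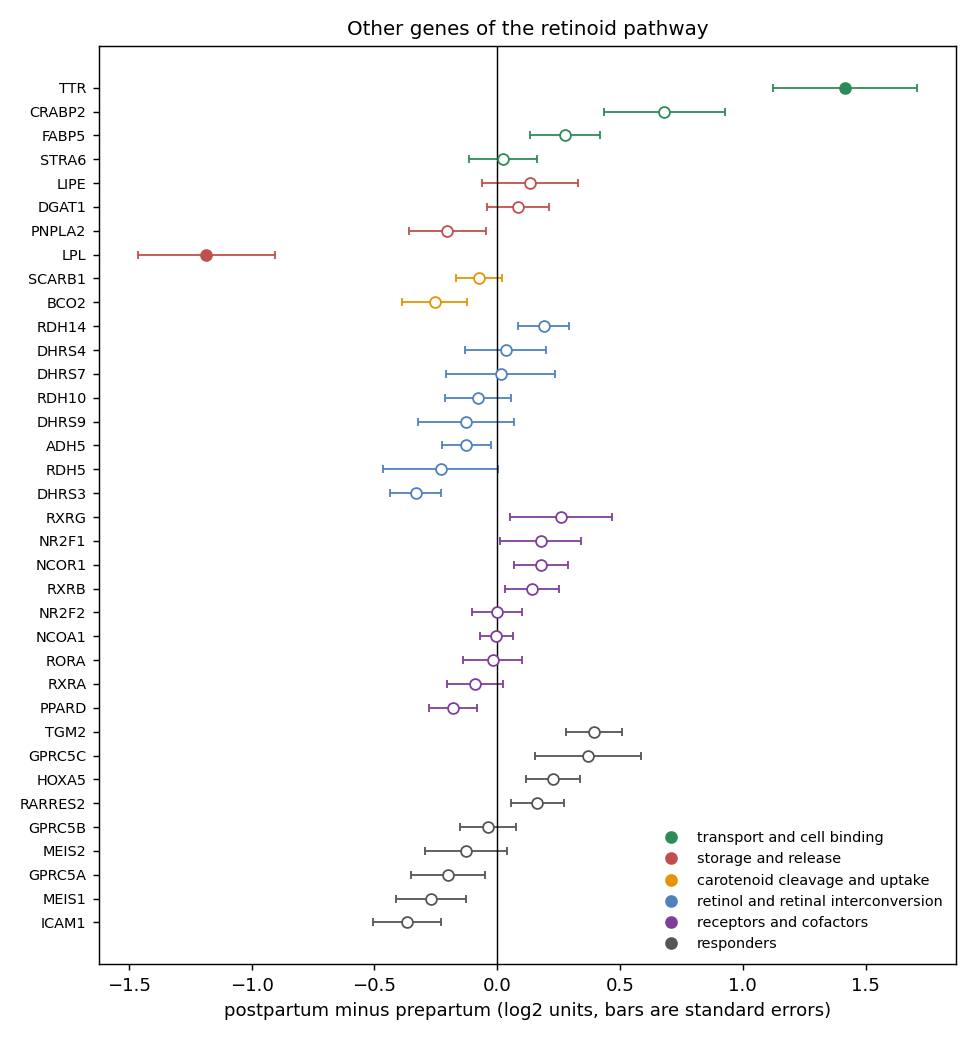
Postpartum minus prepartum change of the 36 kept retinoid genes other than the members, in log2 units, with standard errors from limma's fit, grouped and coloured by role. Filled points, TTR at 1.41 and LPL at -1.18, passed an adjusted p of 0.05, and the open points did not.

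The genes most like each member were taken by Pearson's r over 22 arrays after subtraction of each time's mean, as a description in which the arrays of a cow share an animal. For RARRES1 they were the formin FMNL3 (0.838), the Cdc42 effector CDC42EP1 (0.814) and the transporter ATP13A1 (0.733), with r of 0.822, 0.835 and 0.761 without the arrays of cows 384 and 387 (18 arrays). After subtraction of the mean of each array set at each time, r was 0.806, 0.818 and 0.695 for them.

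For RBP4 they were EHD2, an ATPase of caveolae (0.876), MPDU1 (0.86) and ARL6IP5 (0.854). They had r of 0.865, 0.85 and 0.836 without cows 384 and 387, and of 0.834, 0.729 and 0.758 within array sets. There the most like genes were others: CIDEC, a lipid droplet protein (0.952, against 0.609 over 22 arrays), GNAI1 (0.937, against 0.457) and THRSP (0.936, against 0.483). With each time's mean subtracted and without cows 384 and 387, their r was 0.655, 0.373 and 0.362. CIDEC and THRSP are also in the adipocyte marker list.

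For ALDH1A1 they were the Wnt receptor FZD4 (0.918), RAB3B (0.907) and the glycerol channel AQP7 (0.873), an adipocyte marker. They had r of 0.892, 0.914 and 0.835 without cows 384 and 387, and of 0.936, 0.923 and 0.922 within array sets. For RARA, taken as Bt.26118.1.S1_s_at, they were EGFL7 (0.85), an endothelial secreted protein, CRCP (0.828) and BCL7C (0.82). They had r of 0.799, 0.792 and 0.761 without cows 384 and 387 and of 0.824, 0.802 and 0.827 within array sets, where SSR1 stood first (0.895, against 0.251 over 22 arrays). For SSR1, r with each time's mean subtracted was -0.239 without cows 384 and 387 (18 arrays).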

How the data were processed

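The deposited values are linear signal intensities, 1 per probe set and array, which the authors computed by MAS5 (per the submitters' processing notes). No MAS5 version or genome build is given in the sources used here. The trimmed mean, with 2% removed at each end, was 125 on all 22 arrays. Arrays give no depth, and their number limits the precision. Of 24128 probe sets, 112 controls were left out. A single symbol belonged to 13292 of 24016 probe sets (13263 through the Entrez identifier and 2 through an accession in a RefSeq table of ARS-UCD2.0, 27 as annotated), several to 86 and none to 10638. No sequence or coordinate was used.

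The scale was log2(signal + 7.78), where 7.78 is the 20th percentile of an array's bovine signals, as the median of all arrays. The filter kept the 14410 probe sets with a mean at or above the 40th percentile, and the brightest of them stood for its gene (6984 genes). The test was limma 3.58.1 (R 4.3.3) with fixed cow blocks and an intensity trend, adjusted by Benjamini-Hochberg over all probe sets kept, at 0.05. The fit was also run on simulated data with noise independent between probe sets. Such data lack the variation that probe sets of these arrays share, so that run does not vouch for the calls here. The series design states paired sampling of the same animals, and cow numbers in the titles gave the pairs. P-values measure the spread between cows.

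Correlations used 100000 permutations over 11 cows (scipy 1.17.1, Python 3.11.15), and exact permutations within array sets, which are two-sided. The members and gene lists were chosen with earlier results of these data known. Named genes were the members, retinoid genes past the threshold, the 2 kept genes with the largest change in each role, and the 3 genes most like each member. STRA6, LIPE, DGAT1, RXRA, ICAM1, RARRES2, HOXA5 and the most like genes within array sets were named after their values were seen.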

Additional observations from a re-analysis of the deposited data

Results flagged for a closer look

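Each probe set of a member was examined in 4 groups of arrays, those of an array set at a time, and in 4 of the 20 groups 1 array stood apart by Dixon's 95% limit, where chance gives about 1 in 20. Values are log2(signal + 7.78). RARRES1 was lowest among the prepartum arrays of array set 1 in cow 331, at 7.02, with the next array at 8.75. RBP4 was lowest among the postpartum arrays of array set 2 in cow 384, at 8.89, with the next array at 11.03. RBP4 was also lowest among the prepartum arrays of array set 2 in the array labelled cow 387, at 10.63, with the next at 11.51, and ALDH1A1 was lowest in the same array, at 10.80, with the next at 11.30. The arrays of cows 384 and 387 named here had the highest skeletal muscle markers of their time, at 8.16 and 7.51 log2 units above the gene medians, and adipocyte markers at -1.85 and -0.60. The prepartum array of cow 331 had a KRT10 level of 9.34. The part of these in the member values was not tested.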

How the results depend on the processing

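The level differences between array sets, with their alternatives, and every value within array sets were added with the data known. The members' mean changes kept their sign in all 21 alternatives each for RARRES1 (-2.03 to -1.61), RBP4 (-0.90 to -0.41), ALDH1A1 (-0.45 to -0.28) and RARA taken as its brighter probe set or as the mean of both (-0.24 to -0.02). Without the replicate block, 338 probe sets passed against 494, and TTR and LPL remained the retinoid calls. The retinoid calls numbered 4 without cows 384 and 387, 0 without cows 330, 331, 341 and 382, 0 in either array set by itself, and 1 to 4 when single cows were left out. The matching counts of all probe sets were 1070, 6, 69, 0 (1526 at an unadjusted limma p under 0.05) and 242 to 969. The smaller array sets hold fewer cows, and otherwise the cause was not tested. The difference of change between array sets was -0.087 for RARRES1 and 0.027 for ALDH1A1 without cows 384 and 387. With single cows left out it was -0.086 to 0.48 and -0.24 to 0.11, none of it called. The level difference of RBP4 lost its call at 1.53 with postpartum arrays alone and at 1.16 without cows 330, 331, 341 and 382, and kept it without single cows (1.12 to 1.47). That of ALDH1A1, never called, was -0.028 with postpartum arrays alone, -0.012 without those 4 cows and -0.10 to 0.13 without single cows. That of the RARA probe set Bt.26118.1.S1_s_at was 0.37 and called without cows 384 and 387. It was 0.21 to 0.32 with single cows left out. Of 12 member pairs, 2 passed within array set 2, 2 within array sets, and 0 to 1 without single cows (RBP4 with RARA postpartum without cow 360, r = 0.855). Uncalled correlations changed sign. RARRES1 with ALDH1A1 postpartum was 0.045 without cows 330, 331, 341 and 382, 0.451 in array set 2 alone and -0.234 to 0.14 without single cows. Prepartum it was -0.065 without cows 384 and 387, -0.026 within array sets and -0.098 to 0.247 without single cows. RARRES1 with RARA prepartum was -0.061 to 0.475 without single cows.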
